A study of Mus musculus with 14 samples.

Results

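The response described here is that of the whole colon to the synthetic GC dexamethasone (DEX) in mice whose intestinal epithelium lacks the GC receptor (GR). It was measured on 7 one-color microarrays, 4 of GR iKO mice given DEX (replicates 1 to 4) and 3 of GR iKO mice given PBS (replicates 2 to 4), out of 14 arrays in the series. A probe was taken as a member when the scanner software rated its spot well above background on every array of at least 1 of these groups, which held for 28493 of 41174 probes. Of the members, 26208 passed on all 7 arrays, 1370 on all DEX arrays only, and 915 on all PBS arrays only. Members named by a single symbol represented 15613 genes. Dim probes shifted between the PBS and DEX arrays on the last rows of the array. Rows 1 to 354 (18904 members) and rows 355 to 532 (9392 members) were therefore treated apart, and 197 members are spotted at several positions.

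GR iKO mice carry floxed GR alleles and a Villin-cre transgene, which deletes GR in intestinal epithelial cells and leaves it in immune, stromal, vascular, and muscle cells, whereas Flox mice carry the floxed alleles without cre and keep GR in the epithelium too. The mice were male, on a C57BL/6 background, and fed chow, and all had their adrenal glands removed (ADX) and rested for 2 weeks before 1 intraperitoneal injection of DEX at 1 mg/kg in PBS or of PBS alone. Colons were collected after 6 hours, and the Flox mice, 3 with DEX and 4 with PBS, are used for comparison. The labels give an age of 6 to 8 weeks at ADX and of 8 to 10 weeks at collection, and the study's methods give an older age. The number of arrays, 1 per mouse, limits the precision of every value, and each group lay on a slide and in a scan of its own, so slide, scan, and group cannot be told apart.

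GR is a nuclear receptor that moves to the nucleus when it binds a GC, raises some genes by binding their regulatory DNA, and lowers many inflammatory genes by interfering with NF-κB, AP-1, and other factors. Most cells of the body carry it, so a systemic GC also acts on the leukocytes, fibroblasts, endothelium, and smooth muscle of the gut wall. GCs are known for restraining macrophage and lymphocyte activity in the gut and for shifting many tissues from glucose to fatty acid use.

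*Nr3c1*, which encodes GR, was checked first. Its brightest probe lay on row 476, among the rows treated apart. This probe had log2 signals of 10.21, 9.86, and 9.68 on the 3 GR iKO arrays with PBS, and of 9.27, 9.32, 9.44, and 9.41 on the 4 with DEX (−0.55, adjusted p = 0.0135, under 2-fold). All 7 lay below the Flox means of 10.82 ± 0.09 (SD, n = 4) after PBS and 10.60 ± 0.12 (SD, n = 3) after DEX. GR iKO was lower than Flox by a log2 difference of −0.91 (SE 0.12, limma adjusted p = 0.0134) under PBS and −1.24 (adjusted p = 0.002) under DEX. Of the 3 other probes, 2 (rows 342 and 189) had an adjusted p under 0.05 under both treatments. The other, on row 483, did not (−1.0 with PBS, adjusted p = 0.658, and −0.43 after DEX, adjusted p = 0.754). In whole-tissue RNA, fewer cells of a type and less RNA per cell cannot be told apart.

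A probe was called when its Benjamini-Hochberg adjusted p over all 41174 probes was under 0.05 and it changed at least 2-fold between DEX and PBS. On rows 1 to 354, 125 member probes were called higher with DEX than with PBS in GR iKO mice (0.661% of those tested), and 326 lower (1.72%). Among the 17669 members there that passed on all 7 arrays, 100 were higher and 206 lower. The balance of directions depended on the scaling. Subtracting the 75th percentile of each array from the scanner values gave 239 higher and 177 lower, quantile normalization within 3 parts of the rows gave 195 and 229, and normexp background correction gave 55 and 59. Among members with a mean log2 signal above 8, a limit set after the data were seen, 59 were higher and 46 lower. Leaving out GR iKO PBS replicate 2 raised the number of calls from 451 to 687, and the other arrays left out in turn gave between 307 and that number.

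Probes called in GR iKO mice mostly moved in the same direction in Flox mice. On rows 1 to 354, 81 of the 100 called higher and 201 of the 206 called lower on probes that passed on all 7 arrays had the same sign in Flox mice, and 28 and 93 of them were called there as well (0.741% and 1.18% of all members on these rows were called higher and lower in Flox mice). Their median log2 changes were 1.27 in GR iKO and 0.77 in Flox mice for the higher probes, and −1.25 and −1.08 for the lower ones. These probes were picked by their calls in GR iKO mice, as were those on the last rows below. The medians of the genotypes are therefore not a like comparison of sizes. The test of the difference itself, the response of GR iKO minus that of Flox mice, called 18 of the 18904 members on these rows (0.0952%), 9 in each direction. Only 4 of these 18 were also called in GR iKO mice. This count was sensitive to single arrays, since it was 30 without Flox PBS replicate 1, 9 and 8 without Flox PBS replicates 3 and 4, 5 and 49 without Flox DEX replicates 1 and 4, 29 without GR iKO PBS replicate 3, and 10 without GR iKO DEX replicate 1.

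**Figure D1:**
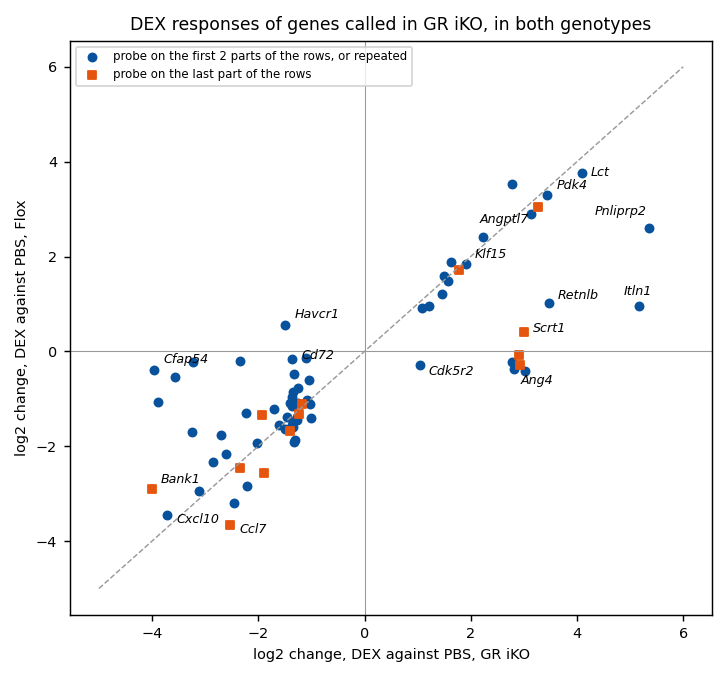
Log2 change with DEX in GR iKO (x axis) against Flox mice (y axis) for named genes called in GR iKO, by the array rows of the probe; the dashed line marks equal changes. Some genes lie near the line (Pdk4, 3.44 and 3.30). Others lie far from it, such as Itln1 (5.16 and 0.96), Ang4 (2.81 and −0.38), Retnlb (3.47 and 1.02), and Scrt1 (3.01 and 0.41).

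Among genes known to be induced by GC, 4 of 25 members on the array were called higher in GR iKO mice and none lower (3.13% of all 15613 member genes were called higher and 1.89% lower, and 0.795% and 2.1% of the 10315 with their probe on rows 1 to 354). The median log2 change of these 25 was 0.52, beside −0.03 over all member genes, and it was 0.81 in Flox mice, where 9 were called higher (0.897% of member genes were called higher there, and 1.56% lower). *Pdk4*, a kinase that shuts down pyruvate dehydrogenase and so spares glucose, had log2 signals of 7.86, 6.75, and 7.32 with PBS and of 10.26, 11.49, 10.34, and 10.90 with DEX. The groups were more than 2 units apart, and the rise of 3.44 (SE 0.34, adjusted p = 0.000683) stood beside 3.30 in Flox mice. *Klf15*, a transcription factor that GC induces in many tissues and that drives amino acid breakdown, read 7.42, 7.03, and 6.98 with PBS and 9.19, 8.84, 8.65, and 9.54 with DEX. Its rise of 1.91 (SE 0.22, adjusted p = 0.00139) compared with 1.85 in Flox mice, and its other probe changed by 0.42 without a call. *Tsc22d3*, which encodes the anti-inflammatory protein GILZ, read 10.45, 10.96, and 10.61 with PBS and 12.49, 12.25, 12.43, and 11.99 with DEX. No array of one group reached the other, and all 3 probes were called, with rises of 1.27 to 1.85 (1.62 for the brightest, adjusted p = 0.00103).

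The fourth called gene, *Lcn2*, which encodes an iron-scavenging antimicrobial protein, lay on the last rows of the array and was dim, at 5.2, 3.19, and 3.66 with PBS and 5.65, 5.0, 5.75, and 6.79 with DEX. The groups overlapped, and the call (adjusted p = 0.0497) was lost with 10 of the 14 arrays left out in turn, among them GR iKO PBS replicates 3 and 4 (adjusted p = 0.172 and 0.142), GR iKO DEX replicates 1, 3, and 4 (0.0823, 0.089, and 0.0941), and Flox arrays (0.0625 to 0.066). Several classical targets stayed below the 2-fold limit although their adjusted p passed, namely *Mt2*, a metal-binding protein (0.99, adjusted p = 0.0319), *Dusp1*, a phosphatase that stops MAP kinases (0.86, adjusted p = 0.0114), *Errfi1*, an inhibitor of EGF receptor signaling (0.71, adjusted p = 0.0219), and *Glul*, the glutamine synthetase (0.71, adjusted p = 0.0481). *Mt2* passed both limits without GR iKO DEX replicate 3 (1.11), and *Dusp1* without GR iKO PBS replicate 3 (1.08). *Mt1*, a second metal-binding protein, differed by 0.02 (SE 0.20) in GR iKO mice, with means of 15.93 ± 0.14 (SD, n = 3) after PBS and 15.95 ± 0.21 (SD, n = 4) after DEX, and its Flox means were 13.28 with PBS and 14.91 with DEX.

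*Sgk1*, a kinase that raises sodium uptake, and *Fkbp5*, a co-chaperone that dampens GR, were not called in GR iKO mice. *Sgk1* read 11.93, 12.39, and 12.31 with PBS and 12.79, 13.14, 13.16, and 12.43 with DEX, a difference of 0.67 (SE 0.31, adjusted p = 0.181). *Fkbp5* read 9.34, 8.59, and 8.54 with PBS and 9.42, 10.21, 9.65, and 9.68 with DEX (0.91, adjusted p = 0.0938), and 1 of its 2 other probes was called (1.46). In both genes the DEX arrays lay above the PBS arrays without overlap. The Flox changes were 3.21 and 3.63, and the differences between the genotypes of −2.54 and −2.71 missed the threshold in this table (adjusted p = 0.0528 for both).

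**Figure D2:**
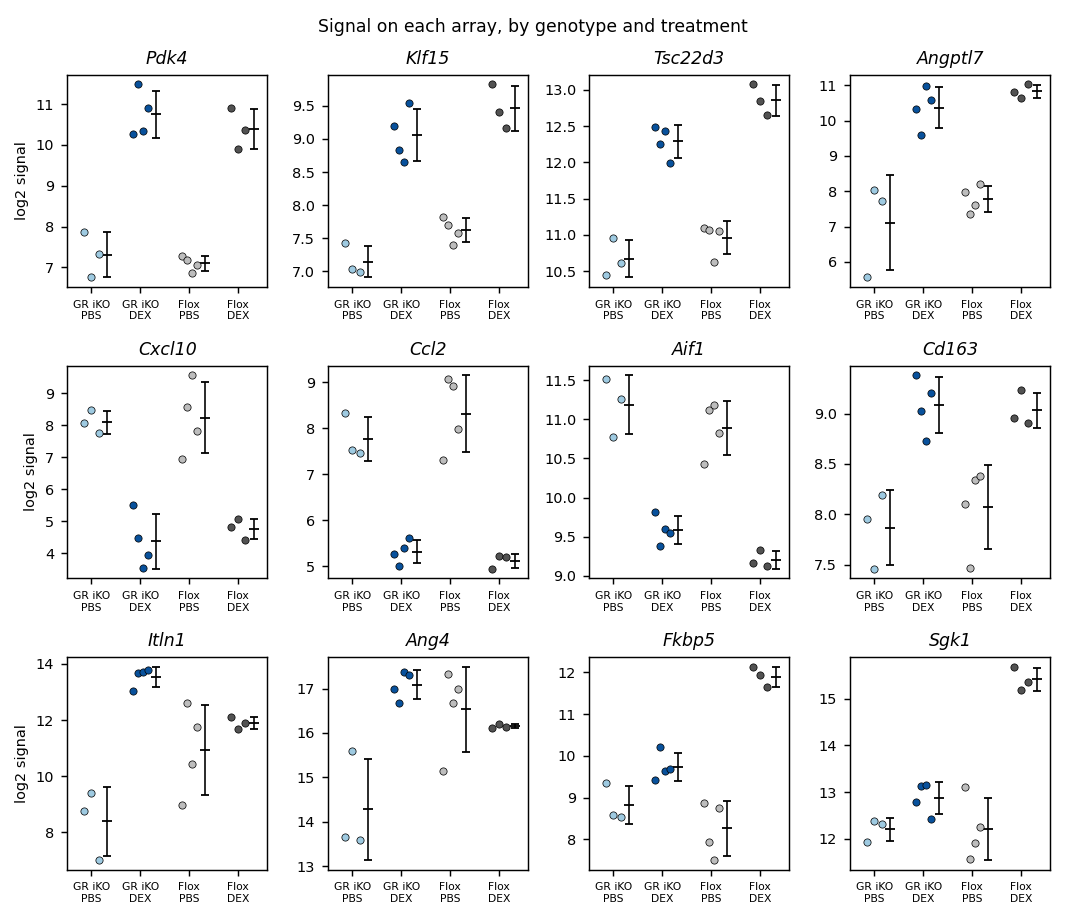
Log2 signal of 12 genes on each of the 14 arrays (points), with the mean and SD of each group beside them; each panel has its own y axis, which does not start at 0. In Pdk4, Klf15, Tsc22d3, Angptl7, and Cd163 all 4 GR iKO DEX arrays lie above the 3 PBS arrays, and in Cxcl10, Ccl2, and Aif1 they lie below them.

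Several genes outside the list had large rises, and *Lct* and *Lancl3* were called in both genotypes. *Lct*, which encodes lactase, was well above background on 1 of 3 PBS arrays and on all 4 DEX arrays, with values of 4.03, 4.11, and 4.38 against 7.49, 8.27, 8.71, and 8.58. It rose by 4.09 (adjusted p = 0.00215) in GR iKO and by 3.77 in Flox mice. *Lct* is one of the 7 measured small intestine markers. Of these, *Fabp6*, the ileal bile acid binding protein, was called lower, at least 2.17-fold in the deposited table. *Fabp6* lay on row 511 and was above background on all 3 PBS arrays and on no DEX array. Its change ranged from −1.64 to −0.19 over the other processing settings. The call was lost with 75th percentile scaling and with normexp. *Tmem252*, a membrane protein, rose by 3.13 (adjusted p = 0.0357) beside 2.90 without a call (adjusted p = 0.0872) in Flox mice, and its call was lost without GR iKO PBS replicates 3 or 4 or DEX replicates 1, 2, or 3 (adjusted p = 0.0602 to 0.127). *Lancl3*, dim with PBS, rose by 2.77 (adjusted p = 0.013) beside 3.52 in Flox mice. Chosen after their values were seen, *Fam107a*, which encodes a GC-inducible protein that binds actin, rose by 2.23 (adjusted p = 0.00341), *Arl4d*, a small GTPase, by 1.57 (adjusted p = 0.000673), and *Crispld2*, a secreted protein of lung and vascular mesenchyme, by 1.45 (adjusted p = 0.00415). Their Flox changes were 2.42, 1.49, and 1.20.

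In the list of fatty acid use genes, 2 of 18 members were called higher, *Pdk4* and *Cpt1b*, the muscle form of the carnitine palmitoyltransferase that lets fatty acids into mitochondria. *Cpt1b* rose by 1.08 (adjusted p = 0.02), its other probe changed by 0.21, and the call was lost without GR iKO PBS replicate 4 (0.81) or DEX replicate 2 (0.91). The list median was 0.10, and 3.13% of all member genes were called higher.

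Among inflammatory genes that GC is known to repress, calls were in the other direction. Of 24 on the array, 14 were members, and 6 of these 14 were called lower and none higher (1.89% of all member genes were called lower). The median log2 change was −1.03 in GR iKO and −1.35 in Flox mice. The chemokines *Cxcl9* and *Cxcl10*, which draw activated T cells through the receptor CXCR3, lie near each other on chromosome 5. Their promoters, from 250 bases before to 50 bases after the start, are shown because the pair fell together. They are RefSeq sequences of build GRCm38.p6 (chr5:92328030-92328329, minus strand; chr5:92348840-92349139, minus strand), and capitals mark matches on either strand to the letters GGGANNNNCC, a loose form of the NF-κB site that 20.7% of all 32851 promoters hold.

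Cxcl9: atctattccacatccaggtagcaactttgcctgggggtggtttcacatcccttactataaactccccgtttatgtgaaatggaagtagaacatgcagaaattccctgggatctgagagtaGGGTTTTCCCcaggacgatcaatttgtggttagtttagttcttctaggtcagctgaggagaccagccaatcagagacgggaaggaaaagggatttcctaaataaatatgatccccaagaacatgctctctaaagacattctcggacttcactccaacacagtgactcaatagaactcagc
Cxcl10: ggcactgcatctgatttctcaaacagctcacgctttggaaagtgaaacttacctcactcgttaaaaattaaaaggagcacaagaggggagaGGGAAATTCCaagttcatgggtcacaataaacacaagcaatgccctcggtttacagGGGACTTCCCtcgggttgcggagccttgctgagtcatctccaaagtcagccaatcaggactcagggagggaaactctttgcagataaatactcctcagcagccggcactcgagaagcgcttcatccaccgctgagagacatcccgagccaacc

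*Cxcl10* had log2 signals of 8.06, 8.47, and 7.75 with PBS and of 5.52, 4.48, 3.56, and 3.94 with DEX. It was well above background on all 3 PBS arrays and on 3 of the 4 DEX arrays, and it fell by 3.72 (SE 0.57, adjusted p = 0.00426), beside −3.46 in Flox mice. *Cxcl9* read 7.53, 7.01, and 7.14 with PBS and 4.58, 5.04, 4.53, and 5.39 with DEX, a change of −2.34 (adjusted p = 0.0237). Its call was lost without any 1 of GR iKO PBS replicates 2, 3, and 4 and DEX replicates 1 and 3 (adjusted p = 0.0535 to 0.0591). The promoter windows hold 1 match in *Cxcl9*, 130 bases before the start, and 2 in *Cxcl10*, 159 and 103 bases before it. The letters were found in 20 of the 73 called genes named or listed here with a promoter sequence. Genes called higher were among them, such as *Pdk4*, *Tsc22d3*, *Cd163*, and *Itln1*.

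The monocyte attractants *Ccl2* and *Ccl7*, both ligands of CCR2, were called lower as well. *Ccl2* went from 8.33, 7.52, and 7.46 with PBS to 5.27, 5.0, 5.40, and 5.62 with DEX (−2.45, SE 0.38, adjusted p = 0.00434). *Ccl7*, measured on the last rows of the array, went from 8.01, 7.43, and 7.09 to 5.36, 4.37, 5.31, and 4.87 (−2.53, SE 0.32, adjusted p = 0.00226), and its second probe was called too (−2.10). Both groups were separate in each gene, and the Flox changes were −3.20 and −3.67, with no called difference between genotypes (adjusted p = 0.582 and 0.312). *Icam1*, the endothelial and leukocyte adhesion molecule that holds leukocytes on vessel walls, fell by 1.25 (adjusted p = 0.0135). *Il1b*, the cytokine interleukin 1β, was well above background on all 3 PBS arrays and on 3 of the 4 DEX arrays. It fell by 2.03 (adjusted p = 0.0248), a call lost without GR iKO PBS replicates 2 or 3 (adjusted p = 0.0611 and 0.0801) or DEX replicates 2 or 3 (0.0586 and 0.0581). Of the 8 other members, *Tnf* (−0.95, adjusted p = 0.145), *Ccl20* (−1.10, adjusted p = 0.262), and *Ccl5* (−0.79, adjusted p = 0.258) were lower without a call, and *Ptgs2* (0.68, adjusted p = 0.0993), the inducible cyclooxygenase, was higher without one. *Vcam1*, another adhesion molecule, had probes that disagreed, at 0.51 for the brightest and −1.28, which was called, for the other.

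Further secreted and receptor genes of inflammation fell by more than 2-fold, of which the first 3 were taken by their rank and the rest after their values were seen. *S100a9*, a subunit of the neutrophil and monocyte protein calprotectin, fell by 2.85 (adjusted p = 0.0383), and *Il1rl1*, the receptor of interleukin 33, by 2.70 (adjusted p = 0.0246). *S100a9* was the only called one of 3 neutrophil members, and the others, *Mpo* (0.98, adjusted p = 0.0946) and *Retnlg* (1.27, adjusted p = 0.245), were above 0 without a call. The calls of *S100a9* and *Il1rl1* were each lost without GR iKO PBS replicates 2 or 3 or DEX replicates 1 or 3, and also without DEX replicate 4 and Flox DEX replicate 1 for *S100a9* and DEX replicate 2 for *Il1rl1* (adjusted p = 0.0524 to 0.109 and 0.0512 to 0.0835). The second probe of *Il1rl1* changed by 0.33. *Mmp13*, a collagenase, fell by 2.61 (adjusted p = 0.00736). *Ccl12*, a further CCR2 ligand, fell by 2.21 (adjusted p = 0.009), *Ccl17*, which attracts T cells through CCR4, by 1.37 (adjusted p = 0.0114), and *Ccl24*, which attracts eosinophils, by 1.3 (adjusted p = 0.00414). *Il33* itself fell by 1.26 (adjusted p = 0.00362), at 0.99 without GR iKO PBS replicate 2 and so under 2-fold there.

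Macrophage markers went both ways. Among 11 members, *Cx3cr1*, the fractalkine receptor of resident gut macrophages, was called lower (−1.49, adjusted p = 0.00914) and *Cd163*, the hemoglobin scavenger receptor, was called higher. The shares over all member genes were 1.89% lower and 3.13% higher. The list median was −0.66 in GR iKO and −0.72 in Flox mice, and *Csf1r* (−0.86), *Adgre1* (−0.74), *Cd68* (−0.70), and *C1qa* (−0.57) were lower without a call. *Cx3cr1* has a second probe that changed by 0.92 without a call. *Cd163* read 7.95, 7.46, and 8.19 with PBS and 9.38, 9.03, 8.73, and 9.21 with DEX, so that every DEX array lay above every PBS array, and rose by 1.22 (SE 0.24, adjusted p = 0.0106), beside 0.96 in Flox mice. Its promoter (chr6:124304401-124304700, plus strand, GRCm38.p6) is shown because it is a macrophage gene that rose while the change was below 0 in the 10 other members. Capitals mark 2 matches to the GR hexamer TGTTCT on either strand, letters that 19.0% of all promoters hold.

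Cd163: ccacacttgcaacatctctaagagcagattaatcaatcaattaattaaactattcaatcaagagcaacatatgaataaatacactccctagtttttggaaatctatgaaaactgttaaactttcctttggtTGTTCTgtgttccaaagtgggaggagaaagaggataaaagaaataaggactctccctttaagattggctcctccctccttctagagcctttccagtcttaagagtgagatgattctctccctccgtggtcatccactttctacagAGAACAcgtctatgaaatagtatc

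The hexamer was found in the promoters of 15 of the 73 called genes named or listed here that have one in the table, among them *Tsc22d3*, *Fam107a*, *Cxcl9*, and *Mmp10*. Inverted pairs of the hexamer 3 bases apart were found in 3 of all 32851 promoters and in none of these genes.

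A wider set of monocyte and macrophage genes was put together after the data were seen, so its count is a description only. Of its 15 members, 12 were called lower in GR iKO and 11 in Flox mice, with medians of −1.26 and −1.5. *Aif1*, the calcium-binding protein IBA1 of macrophages, is bright and showed the pattern clearly, at 11.52, 10.78, and 11.26 with PBS and 9.81, 9.38, 9.60, and 9.55 with DEX. The groups were about 1 unit apart at their nearest, and the fall was 1.61 (SE 0.20, adjusted p = 0.0021), with −1.87 on its second probe. *Fcgr1*, the high-affinity receptor of IgG, fell by 1.61 (adjusted p = 0.00961), *Cd209f*, a C-type lectin, by 1.97 (adjusted p = 0.00226), *Slamf8* by 1.69 (adjusted p = 0.00373), and *Msr1*, a scavenger receptor, by 1.28 (adjusted p = 0.00952). *Ccr2*, the receptor of *Ccl2* and *Ccl7*, fell by 1.26 (adjusted p = 0.0309), and *Lyz2*, the lysozyme of myeloid cells, by 1.06 (adjusted p = 0.0275). Both of the latter calls were lost without any 1 of GR iKO PBS replicates 2, 3, and 4 and DEX replicates 2 and 3 (adjusted p = 0.0534 to 0.0836 and 0.0508 to 0.0902). With normexp background correction 5 of the 12 were called, all 12 still with a negative sign.

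MHC class II genes serve antigen presentation by macrophages, dendritic cells, and B cells. Of 8 members, 5 were called lower and none higher (median −1.29, and −1.47 in Flox mice, where 4 were called lower). Over all member genes, 1.89% were called lower in GR iKO and 1.56% in Flox mice. *H2-Aa* and *H2-Eb1* each encode a chain of a class II molecule, and their promoters are shown because both genes fell and both windows hold the Y box (chr17:34287774-34288073, minus strand; chr17:34305617-34305916, plus strand, GRCm38.p6). Capitals mark CTGATTGG, found on either strand in 4.1% of all promoters, 51 bases before the start in *H2-Aa* and 62 bases before it in *H2-Eb1*. It was not found in the windows of *H2-DMa* and *H2-DMb1*. In all, 9 of the 73 called genes named or listed here with a promoter sequence held it. Besides these 2 genes, they were *Cxcl9*, *Cxcl10*, *Lss*, and *Mvk*, called lower, and *Arl4d*, *Crispld2*, and *Pdk4*, called higher.

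H2-Aa: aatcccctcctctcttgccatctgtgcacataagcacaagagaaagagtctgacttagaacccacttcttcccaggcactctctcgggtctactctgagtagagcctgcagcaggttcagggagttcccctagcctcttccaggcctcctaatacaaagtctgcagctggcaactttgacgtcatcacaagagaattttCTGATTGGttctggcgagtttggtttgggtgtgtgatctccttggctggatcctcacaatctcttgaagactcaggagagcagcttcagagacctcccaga
H2-Eb1: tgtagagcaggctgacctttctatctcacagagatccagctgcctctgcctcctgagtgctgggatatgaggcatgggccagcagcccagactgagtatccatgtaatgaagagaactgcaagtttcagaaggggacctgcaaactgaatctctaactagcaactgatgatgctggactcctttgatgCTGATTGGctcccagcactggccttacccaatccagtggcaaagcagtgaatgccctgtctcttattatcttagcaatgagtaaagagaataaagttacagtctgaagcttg

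*H2-Aa* read 10.92, 10.76, and 11.17 with PBS and 10.19, 9.33, 9.11, and 9.33 with DEX (−1.46, SE 0.38, adjusted p = 0.0324), and *H2-Eb1*, on the last rows, read 12.17, 11.94, and 12.42 with PBS and 11.47, 10.90, 10.53, and 11.04 with DEX (−1.19, adjusted p = 0.0272). In both, DEX replicate 1 was the highest DEX array and still below every PBS array. *H2-Ab1* (−1.35), *H2-DMa* (−1.27), and *H2-DMb1* (−1.41), which encode a further chain and the peptide-loading chaperone, were called too, and all 3 other member probes of *H2-Ab1* were called with changes of −1.58 to −1.47. *Cd74*, the invariant chain (−1.17), and *Ciita*, the master regulator of the class (−1.30), were not called. Each of the 5 calls was lost without GR iKO PBS replicate 4 (adjusted p = 0.0749 to 0.109), DEX replicate 2 (0.058 to 0.0722), or DEX replicate 3 (0.051 to 0.0767). All but that of *H2-Eb1* were also lost without PBS replicate 3 (0.0574 to 0.0737), those of *H2-Aa* and *H2-Eb1* without PBS replicate 2 (0.0613 and 0.0535), and that of *H2-Aa* without DEX replicate 4 (0.0581). With DEX replicates 2 and 4 left out together, the 2 arrays high in pancreas markers, none of the 5 was called, among them *H2-Aa* (−1.29, adjusted p = 0.146) and *H2-Eb1* (−1.17, adjusted p = 0.105).

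*Itgax*, the CD11c integrin of dendritic cells and gut macrophages, was the only one of 5 dendritic cell members called, at 9.05, 9.32, and 9.15 with PBS and 8.43, 7.79, 7.75, and 7.64 with DEX (−1.27, adjusted p = 0.00736). Its second probe was called in the other direction (1.12). The 2 probes therefore give no single direction for the gene.

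Over 3 lists of lymphocyte genes, 5 members were called in GR iKO mice, all of them lower (1.89% of all member genes were called lower). Of 9 T cell markers, *Cd3g*, a chain of the T cell receptor complex (−1.36, adjusted p = 0.0153), and *Cd2*, an adhesion receptor (−1.04, adjusted p = 0.0191), were called lower, with a list median of −0.76 (−0.30 in Flox mice, with no call). Of 7 B cell markers, *Bank1*, an adaptor of B cell receptor signaling that was above background on 1 DEX array (−4.0, adjusted p = 0.0189), and *Cd79a*, a chain of the B cell receptor (−1.11, adjusted p = 0.0329), were called lower, though in both the groups overlapped. *Gimap4*, a GTPase of T cell survival, was the only called member among 15 genes of the GC response of lymphocytes (−1.71, adjusted p = 0.0106), and it was above background on 2 of 4 DEX arrays. The median of those 15 was −0.11, with 6 above 0, and among the markers *Cd3e* (0.71) and *Pax5* (0.54) were above 0 without a call. All calls of T and B cell markers were lost without GR iKO PBS replicate 4, with log2 changes of −1.24 for *Cd3g*, −0.81 for *Cd2*, −3.48 for *Bank1*, and −0.78 for *Cd79a*. The calls of *Bank1* and *Cd79a* were also lost without PBS replicate 3 (−3.71 and −1.02), those of *Cd2* and *Cd79a* without DEX replicates 3 (−0.95 and −0.99) and 4 (−1.0 and −1.07), and that of *Cd79a* without DEX replicate 1 (−1.08). The mean of the B cell list ranged from 5.84 to 8.13 over the 3 PBS arrays and from 5.06 to 6.68 over the 4 DEX arrays, so the groups overlapped. Amounts of lymphoid tissue in the samples were not measured, and their part in these results was not tested.

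**Figure D3:**
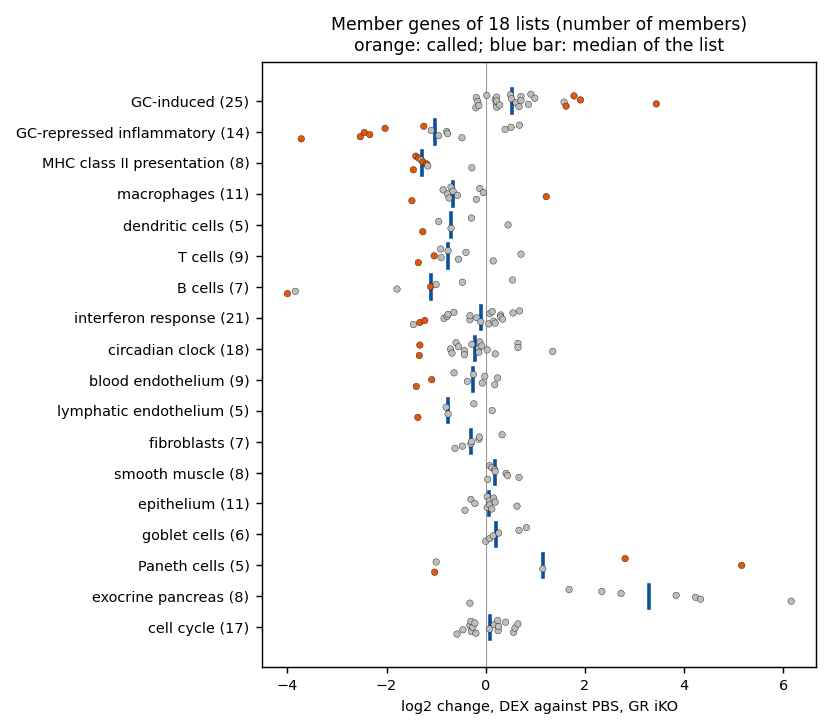
Log2 change with DEX in GR iKO mice (x axis) of the member genes of 18 lists (rows, with the number of members); orange points are called genes, gray points are not, and blue bars are list medians. Most points of the GC-repressed, MHC class II, and macrophage lists lie below 0, and the epithelium, goblet cell, smooth muscle, fibroblast, and cell cycle lists have no called member.

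Genes of vessels and matrix changed in part (1.89% of all member genes were called lower and 3.13% higher). Of 9 markers of blood endothelium, *Kdr*, the VEGF receptor 2 (−1.09, adjusted p = 0.00381), and *Tek*, the angiopoietin receptor (−1.40, adjusted p = 0.0133), were called lower, and the list median was −0.25. The fall of *Kdr* was under 2-fold without GR iKO PBS replicate 3 (−0.95) or DEX replicate 2 (−0.98), and *Tek* missed the threshold without PBS replicate 3 (adjusted p = 0.0503). *Ccl21a*, the chemokine with which lymphatic vessels and lymphoid stroma draw CCR7-bearing cells, read 12.64, 12.26, and 12.60 with PBS and 11.25, 10.74, 10.88, and 11.65 with DEX (−1.37, adjusted p = 0.0103). It was the only called one of 5 lymphatic members, and its fall in Flox mice was −1.56. Of 22 matrix genes, *Has2*, a hyaluronan synthase (−1.89, adjusted p = 0.0106), and *Mmp10*, the metalloproteinase stromelysin 2 (−2.24, adjusted p = 0.00226), were called lower and *Lox*, which crosslinks collagen and elastin, higher (1.5, adjusted p = 0.0214). Without GR iKO PBS replicates 2 or 3, *Lox* missed the threshold (adjusted p = 0.05 and 0.0667). The collagen genes *Col1a1* (−0.29), *Col3a1* (−0.47), and *Col4a1* (0.66) were not called. *Wnt5a*, a signal of gut mesenchyme, and *Cxcl12*, a stromal chemokine, both chosen after their values were seen, fell by 1.35 (adjusted p = 0.0125) and 1.01 (adjusted p = 0.0173), and *Cxcl12* was under 2-fold without GR iKO PBS replicate 2 (−0.80) or DEX replicates 2 (−0.99) or 3 (−0.96).

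The clock and interferon lists each had 2 called members, all of them lower (1.89% of all member genes were called lower). Of 18 clock genes, *Dbp*, a clock output factor, was lower with DEX (14.66, 15.09, and 15.18 with PBS; 13.24, 13.33, 14.05, and 13.92 with DEX) by 1.34 (adjusted p = 0.02), and *Ciart*, a repressor within the clock, by 1.33 (adjusted p = 0.0309). Both calls were lost without GR iKO PBS replicates 3 or 4 or DEX replicate 2 (adjusted p = 0.0512 to 0.11), and that of *Ciart* without DEX replicate 1 (0.0622). *Tef* changed by −0.71 on its brightest probe without a call, and 1 of its 2 other probes was called (−1.2). *Per1*, a direct GR target in many tissues, differed by −0.14 (SE 0.22) in GR iKO and by 0.81 in Flox mice, with no called difference between them (adjusted p = 0.219). *Nfil3*, a repressor of clock outputs, was higher by 1.35 without a call (adjusted p = 0.0631), and was called without Flox PBS replicates 1 or 4 (0.0338 and 0.0412). Of 21 interferon response genes, *Gbp2*, a guanylate-binding protein, fell from 10.80, 11.01, and 11.03 to 9.58, 9.50, 9.82, and 9.55 (−1.33, adjusted p = 0.00749). *Psmb8*, a subunit of the immunoproteasome, was called too (−1.23, adjusted p = 0.0451), but the call was lost with 11 of the 14 arrays left out in turn, 7 of them GR iKO and 4 Flox (adjusted p = 0.051 to 0.142). The largest fall of the list, *Iigp1* (−1.46, adjusted p = 0.0803), was not called, and neither were *Igtp* (−0.84) and *Gbp3* (−0.76). The genes *Isg15* (0.34), *Ifit1* (−0.10), and *Rsad2* (0.55), which respond to type I interferon, were not called either. The list median was −0.10, with 10 members above 0 and 11 below. In Flox mice it was −0.82, and 5 members were called lower there.

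Several secreted proteins of the gut lining were called higher after DEX in GR iKO but not in Flox mice, and the difference between genotypes was not called for those tested below. *Itln1*, which encodes intelectin, a lectin of goblet and Paneth cells, read 8.76, 9.39, and 7.02 with PBS and 13.02, 13.68, 13.70, and 13.80 with DEX. The groups were more than 3 units apart, and the rise of 5.16 (SE 0.75, adjusted p = 0.00362) stood beside 0.96 (adjusted p = 0.542) in Flox mice. The angiogenins, antimicrobial ribonucleases, rose together. *Ang4* read 13.65, 15.59, and 13.60 with PBS and 16.98, 16.68, 17.38, and 17.30 with DEX (2.81, adjusted p = 0.00952). *Ang* rose by 2.77 (adjusted p = 0.00563) and *Ang2* by 3.02 (adjusted p = 0.0064), and probes of such near-identical family members may share signal. *Retnlb*, a goblet cell protein that acts against bacteria and worms, rose by 3.47 (adjusted p = 0.0407), from 15.46, 13.56, and 11.47 to 16.63, 16.98, 17.23, and 17.03. The Flox changes of *Ang4*, *Ang*, *Ang2*, and *Retnlb* were −0.38, −0.23, −0.41, and 1.02, and none was called.

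With PBS, the GR iKO means of these genes lay below the Flox means, at 8.39 against 10.94 for *Itln1* and 14.28 against 16.53 for *Ang4*, and with DEX they lay above them, at 13.55 against 11.90 and 17.09 against 16.15. The difference between the responses was 4.20 for *Itln1* (adjusted p = 0.133) and 3.19 for *Ang4* (adjusted p = 0.117), so it was not called for either. The call of *Retnlb* was lost with 11 of the 14 arrays left out in turn, among them GR iKO PBS replicates 3 and 4 (adjusted p = 0.0952 and 0.142), all 4 GR iKO DEX arrays (0.0655 to 0.0831), and 5 Flox arrays (0.0501 to 0.0557). Of 5 Paneth cell markers, *Itln1* and *Ang4* were called higher and *Lyz1*, the Paneth cell lysozyme, lower (−1.03, adjusted p = 0.0384). Among all member genes 3.13% were called higher and 1.89% lower. The *Lyz1* call was lost without any 1 of GR iKO PBS replicates 2 to 4, GR iKO DEX replicates 2 to 4, Flox PBS replicate 4, and Flox DEX replicate 1 (adjusted p = 0.0522 to 0.131). None of 6 goblet cell markers was called by its brightest probe. For *Muc2*, the main gut mucin, the brightest probe differed by 0.67 (adjusted p = 0.0963), and its 2 other probes were called at 1.33 and 1.44. None of 11 epithelial markers was called, with a median of 0.07.

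*Pnliprp2*, a lipase related to pancreatic lipase, had the largest rise among called genes on rows 1 to 354, at 6.43, 7.34, and 6.79 with PBS and 11.24, 11.71, 13.16, and 12.72 with DEX (5.36, SE 1.14, adjusted p = 0.0144). Markers of exocrine pancreas, a tissue that lies close to the colon, varied strongly between these mice. The mean log2 signal of the 8 measured markers was 7.33 to 7.73 over the 3 PBS arrays, and 7.89, 13.68, 7.96, and 12.96 on DEX replicates 1 to 4. None of the 8 was called, with a median change of 3.29, and *Cpa1*, a carboxypeptidase of pancreatic juice, was not above background on any PBS array. On DEX replicates 1 and 3, where these markers were near their PBS levels, *Pnliprp2* read 11.24 and 13.16. The part of pancreatic tissue in this result was not tested. Without DEX replicates 2 and 4, the number of calls on rows 1 to 354 was 342 (93 higher and 249 lower), and the changes of *Pnliprp2* (5.35), *Itln1* (4.97), *Lct* (3.93), and *Ang4* (2.90) were close to those with all arrays. Of the 90 called genes named or listed here, 46 were no longer called with these 2 arrays left out and 0 turned sign. The calls lost included *Pnliprp2* (adjusted p = 0.0652), *Retnlb* (0.138), *Tmem252* (0.127), *Lancl3* (0.0701), *Cxcl9* (0.059), *Il1b* (0.138), *Icam1* (0.065), *Cx3cr1* (0.0507), *Cd163* (0.0579), *Itgax* (0.0513), *Fcgr1* (0.0527), and all 5 class II genes. The 44 that kept their call included *Pdk4*, *Itln1*, *Lct*, and *Ang4*. Over the 7 small intestine markers, the mean was 7.14 to 9.16 with PBS and 7.93 to 8.86 with DEX.

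The lists of epithelium (11 members), goblet cells (6), enteroendocrine cells (4), tuft cells (5), smooth muscle (8), fibroblasts (7), enteric neurons (7), enteric glia (4), plasma cells (6), eosinophils (3), mast cells (4), and cell cycle genes (17) held no called member in GR iKO mice. Dim lists among these give little to read, since the mean log2 signal of the 4 measured mast cell genes was 5.35 to 5.85 on the DEX arrays. The mean log2 signal of the epithelium list was 15.87 to 16.12 and that of smooth muscle 13.92 to 14.56 on the DEX arrays, with neither list called in any member. The mean log2 signal of the macrophage list was 8.82 to 9.52 with PBS and 8.53 to 9.0 with DEX.

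The 4 members on rows 1 to 354 that were called in GR iKO mice and also differed from Flox mice were *Havcr1*, *Cdk5r2*, *Cfap54*, and the Riken gene *6530409C15Rik*. *Havcr1*, which encodes the phosphatidylserine receptor TIM-1, read 5.34, 5.30, and 5.39 with PBS and 4.03, 3.67, 3.59, and 4.12 with DEX, and was well above background on 2 of the 4 DEX arrays. It fell by 1.49 (adjusted p = 0.00166), while it changed by 0.55 in Flox mice, a difference of −2.04 (SE 0.25, adjusted p = 0.0144). Its change in GR iKO mice was −0.37 at its smallest over the other processing settings, and its call there was lost with normexp. *Cdk5r2*, an activator of the kinase CDK5, read 11.75, 11.55, and 12.04 with PBS and 13.01, 12.69, 12.73, and 12.85 with DEX. Its rise of 1.04 (adjusted p = 0.00215) exceeded the Flox change of −0.28 by 1.32 (adjusted p = 0.0242), and was under 2-fold without GR iKO PBS replicate 3 (0.93) or DEX replicate 1 (0.98). *Cfap54* and *6530409C15Rik* lie 2 rows apart on the array (rows 324 and 322) and passed the background limit on the 3 GR iKO PBS arrays and on no other array of the series. They were at least 3.77-fold and 1.80-fold lower with DEX than with PBS in the deposited table. Over the other processing settings their smallest changes were −0.71 and −0.33, and neither was called with normexp. The other 14 differing probes were not called in GR iKO mice, and they include *Fam43a*, which changed by −0.47 in GR iKO and by 2.08 in Flox mice (difference −2.55, adjusted p = 0.00122). They also include *Rusc1* (0.99, adjusted p = 0.00237), *Syn1* (0.94, adjusted p = 0.000533), and the Riken gene *9530080O11Rik* (0.93, adjusted p = 0.00164), which were just under 2-fold in GR iKO mice. Their Flox changes were −0.22, −0.09, and −0.17.

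Other large falls on rows 1 to 354 rested on dim probes. *Cpn2*, a subunit of carboxypeptidase N, was well above background on the 3 PBS arrays and on no DEX array, and was at least 6.63-fold lower with DEX (fitted change −3.88, adjusted p = 0.00482). *Myo3a*, a myosin, was in the same way at least 3.29-fold lower. Both bounds hold for the deposited table only. Over the other processing settings the smallest changes were −1.06 for *Cpn2* and −0.65 for *Myo3a*. The call of *Myo3a* was lost with normexp and by the methods' t-test after adjustment. *Hoatz* (−3.22, adjusted p = 0.0171) and *H2-DMb2* (−3.25, adjusted p = 0.0349) were above background on 1 DEX array each, and their calls were lost without GR iKO PBS replicate 3 (adjusted p = 0.0625 and 0.11) and, for *H2-DMb2*, without PBS replicate 4 or DEX replicates 2, 3, or 4 (0.0647 to 0.12). *Cpn2*, *Myo3a*, and *Hoatz* lie on rows 344, 302, and 332. *Nat8f5*, an acetyltransferase gene that passed on all 7 arrays, fell from 6.38, 8.46, and 7.16 to 4.22, 3.90, 4.26, and 4.53 (−3.11, adjusted p = 0.00953), beside −2.95 in Flox mice.

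On rows 355 to 532, 717 member probes were called higher with DEX than with PBS in GR iKO mice by the same limits (7.63%), and 101 lower (1.08%). The cause of the large share of higher calls on these rows was not tested. The lower calls resembled those of the other rows, with 77 of 78 on probes above background on all 7 arrays of the same sign in Flox mice and medians of −1.24 and −1.21. The higher calls did not, since of 324 such probes 238 had the same sign in Flox mice, with medians of 1.40 and 0.23. Of the 717, 671 had a mean log2 signal of 8 or less, and 393 were on probes above background with DEX only. Among members with a mean above 8, 46 were called higher and 22 lower. Quantile normalization within 3 parts of the rows gave 443 higher and 223 lower, and normexp background correction 101 and 18. The response of GR iKO minus that of Flox mice was called for 26 members here (0.277%), 23 of them higher. This count was 63, 12, and 14 without Flox PBS replicates 2, 3, and 4, 11 and 57 without Flox DEX replicates 1 and 4, 95 and 68 without GR iKO PBS replicates 2 and 3, and 15, 16, and 14 without GR iKO DEX replicates 1, 3, and 4.

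**Figure D4:**
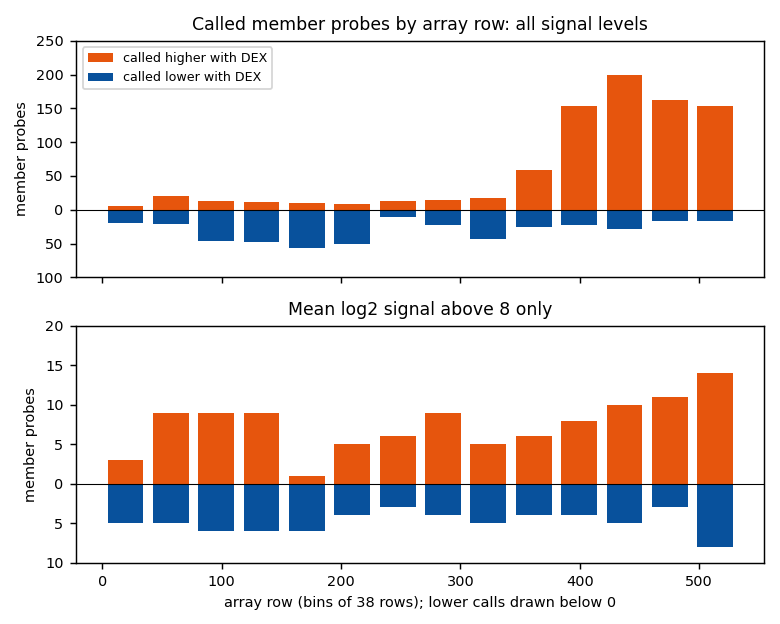
Number of member probes called in GR iKO mice, with those higher after DEX in orange above 0 and those lower in blue below 0, by array row in bins of 38 rows, at all signal levels (top) and for a mean log2 signal above 8 (bottom); the y axes differ. At all levels, calls higher with DEX range from 154 to 199 per bin from row 381 on and from 5 to 20 per bin up to row 342, while above 8 they range from 1 to 14 over all bins. Calls lower with DEX range from 11 to 56 per bin up to row 342, with 46 to 56 on rows 77 to 228, while above 8 they range from 3 to 8 over all bins.

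Named by their rank among probes above background on all 7 arrays, the largest rises on these rows were those of *Angptl7*, *Scrt1*, *Olfr229*, and *Vmn2r29*. *Angptl7*, a secreted GC-responsive protein of the eye and other tissues, read 5.56, 8.03, and 7.73 with PBS and 10.32, 9.59, 10.97, and 10.58 with DEX, and its rise of 3.26 (adjusted p = 0.00474) stood beside 3.04 (adjusted p = 0.0104) in Flox mice. *Scrt1*, a neural transcription factor, *Olfr229*, an odorant receptor, and *Vmn2r29*, a vomeronasal receptor, rose by 3.01, 2.92, and 2.91 and changed by 0.41, −0.28, and −0.08 in Flox mice, with PBS signals between 4.39 and 5.76. The differences between genotypes were not called for these 3 genes (adjusted p = 0.184, 0.129, and 0.089). The falls named there besides *Ccl7*, *Cxcl9*, and *Has2* included *Pla2g2d*, a phospholipase of dendritic cells and macrophages (−1.93, adjusted p = 0.00729), which lay at 6.84, 7.70, and 7.90 with PBS and 6.41, 5.62, 5.30, and 4.86 with DEX.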

How the data were processed

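Colon RNA of 14 mice was hybridized to 1-color Agilent arrays, 1 per mouse. The authors extracted spot intensities with Agilent Feature Extraction (version 12.0.0.7 in the deposited files) and, per the submitters' processing notes, used Partek 6.6. The deposited table gives log2 intensities of 41174 probes whose sorted values are the same in every column to within 0.0024, as quantile normalization gives, although the method is not stated. Flags for signal well above background came from the scanner files, whose deposited intensity values served the alternatives. Probes were named through RefSeq accessions (28223) or the study's probe annotation (805), and 12146 stayed unnamed.

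All 4 groups were fitted together with limma 3.58.1 in R 4.3.3 on the log2 table, and p-values were adjusted over all probes (Benjamini-Hochberg). They measure the spread between arrays only. A gene with several probes was represented by its brightest member probe. Genes were named by rank (10 largest called rises and 10 largest falls on rows 1 to 354, 4 each on the last rows, predicted genes aside), as up to 4 called members of each list, as any member of the GC-induced, GC-repressed, and clock lists, or for a called difference between genotypes. Another 19 genes, 3 lists, and the NF-κB and Y box motifs were added after the values were seen. The members and lists were chosen with earlier results of these data known. A probe without signal in a group gave a bound against the lowest signal rated above background. Alternatives covered the scaling, background correction, array weights, blocks, thresholds, the test, and each array left out in turn. The procedure was tested on simulated data. Some items are not reported here.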

Additional observations from a re-analysis of the deposited data

Results flagged for a closer look

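In 124 groups of 4 DEX arrays tested for a single array apart from the rest, 4 stood out, where chance flags about 1 in 20 groups (6.2 here). These were *Itln1* on GR iKO DEX replicate 1 (13.02, others 13.68 to 13.80), *Cfap54* on replicate 3 (2.26, others 1.36 to 1.39, none of the 4 above background), *Hlf*, a clock output factor, on replicate 4 (8.38, others 7.88 to 7.96), and *Arl4d* on replicate 4 (10.92, others 10.34 to 10.44).

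The DEX response of GR iKO mice differed from that of Flox mice, by the test of the difference itself, for 18 members on rows 1 to 354 and for 26 on rows 355 to 532. Among genes called in GR iKO mice, the difference was −2.04 for *Havcr1*, 1.32 for *Cdk5r2*, −2.15 for *6530409C15Rik*, and −3.56 for *Cfap54* on the log2 scale. *6530409C15Rik* and *Cfap54* were above background on the 3 GR iKO PBS arrays alone, so the size of their differences was not measured.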

How the results depend on the processing

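Calls on rows 1 to 354 (451) came to 114 with normexp, 257 with only the groups compared, 156 at an adjusted p under 0.01, 2377 with no fold minimum, 119 by the methods' t-test after adjustment, and 105 above a mean of 8, and to 307 to 687 with 1 array left out. On rows 355 to 532 (818), the same settings gave 119 with normexp, 335 at 0.01, 2056 with no fold minimum, 353 by the t-test, and 68 above 8, with 402 for probes above background on all 7 arrays, 402 without the 2 arrays high in pancreas markers, and 560 to 888 with 1 array left out. The setting above 8 and the one without those 2 arrays were chosen after seeing the data.

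The difference between genotypes (18 and 26 calls) gave 40 and 66 with normalization within row parts, 39 and 69 over members only, 42 and 63 with array weights, 1 and 1 at 0.01, 8 and 5 without the pancreas-high arrays, and, on the last rows, 48 with 75th percentile scaling. With 1 array left out it ranged from 5 to 49 and from 11 to 95. With the replicate number as a block it gave 9 and 9. Same-numbered arrays deviated together with r = 0.306, 0.134, and −0.009 for replicates 2, 3, and 4, so the numbers were not taken as a pairing, and the block left 22 of 90 called named genes without a call, the 5 class II genes among them.

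*Nr3c1* under PBS was −0.93 with the replicate block (adjusted p = 0.0683), and −0.91 with only the groups compared (0.137) or by the t-test (0.378), none past the threshold. Under DEX the t-test gave −1.24 (0.0545). Left-out arrays gave −1.05 to −0.79 and −1.28 to −1.17. No called named gene reversed. Of the 90, 25 were called under all 9 other settings and 51 in all 14 fits with 1 array left out, and 39 were not called with normexp. Scaling by each array's median moved the member median from −0.03 to −0.10. The cause of these changes was not tested.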

Other observations

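Genes of cholesterol synthesis, a list added after the data were seen, lay below 0 in 20 of 21 members, with a median log2 change of −0.61 in GR iKO and −0.46 in Flox mice. *Lss*, the lanosterol synthase, read 10.68, 11.38, and 10.52 with PBS and 9.53, 9.62, 9.71, and 10.02 with DEX (−1.14, adjusted p = 0.035). *Mvk*, mevalonate kinase, read 10.49, 10.99, and 10.73 with PBS and 9.49, 9.67, 9.70, and 9.96 with DEX (−1.03, adjusted p = 0.0104). These were the 2 called members, and in both genes every DEX array lay below every PBS array. The call of *Lss* was lost without GR iKO PBS replicates 2 or 3 or DEX replicates 1, 2, or 3 (adjusted p = 0.0511 to 0.125), and *Mvk* was under 2-fold without PBS replicate 3 (−0.91) or DEX replicate 1 (−0.96).

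Small heat shock proteins, chaperones abundant in muscle, were also listed after the data were seen, and 3 of 6 members were called higher. *Hspb7* rose by 1.86 (adjusted p = 0.00414), *Hspb1* by 1.28 (adjusted p = 0.00392), and *Hspb8* by 1.09 (adjusted p = 0.00164), beside 1.77, 0.72, and 1.32 in Flox mice. *Hspb8* was under 2-fold without GR iKO PBS replicate 3 (0.99). *Cryab* (0.47), *Hspb2* (0.33), and *Hspb6* (0.15) were not called.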
